A study of Mus musculus with 9 samples.

Results

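The 33 genes described here are markers of microglia and other macrophages, read across all 9 libraries of a bulk RNA sequencing study of the newborn mouse cortex. They were chosen by name as genes known to be used by these cells. All 33 were found in both deposited tables, on 34 rows of each, because Itgam has 2 rows. The table with the ShhN IUE libraries holds 22496 genes and the table with the SmoM2 libraries holds 23624.

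Each library is total RNA from frozen cortex at postnatal day 0, from mice of mixed C57BL/6J, 129S6 and CD1 background, with 3 libraries in each of 3 groups. The wild-type libraries came from littermates. The ShhN IUE group had received ShhN by in utero electroporation (IUE). ShhN is the usual name for the N-terminal, active fragment of the secreted protein Sonic hedgehog, and electroporation delivers DNA to cells that line the ventricle. The SmoM2 group carried hGFAP-Cre and 1 SmoM2 allele (SmoM2 f/+), an activated form of Smoothened, the membrane protein that transmits the hedgehog signal inside the cell. The hGFAP promoter drives Cre in radial glia and their descendants, so neither intervention was aimed at microglia, which arise from the yolk sac. An electroporated control group was not analysed here, so what ShhN did and what the procedure did cannot be told apart. The labels do not say whether the libraries of a group came from separate animals, so the p-values measure the spread between these libraries.

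Microglia are the resident macrophages of the brain. They enter the embryonic brain before neurons are made, depend on the receptor Csf1r, and take up dying cells and excess progenitors in the developing cortex. They sense purines through P2ry12 and P2ry13 and neuronal fractalkine through Cx3cr1, and they make most of the brain's C1q. Macrophages at the brain's borders, in the meninges and along vessels, share many of these genes and add Mrc1, a mannose receptor. In a bulk sample, a lower or higher number of such cells cannot be told apart from less or more RNA per cell.

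Spi1, which is among the 33 genes, encodes PU.1, a transcription factor that binds purine-rich sites with a GGAA core in many macrophage promoters. The 250 bases before the RefSeq start are shown for 4 genes on which the results turn. Fcrls and Mpeg1 passed the test in both comparisons with wild type, Aif1 passed it in the ShhN IUE group alone and differed between the 2 interventions, and Mrc1 marks border macrophages. Sequences are from RefSeq on GRCm38.p6, written 5′ to 3′ on the strand of the gene. Capitals mark GAGGAA and AGGAAGT or their reverse complements, TTCCTC and ACTTCCT.
Fcrls, chr3:87263525-87263774, minus strand: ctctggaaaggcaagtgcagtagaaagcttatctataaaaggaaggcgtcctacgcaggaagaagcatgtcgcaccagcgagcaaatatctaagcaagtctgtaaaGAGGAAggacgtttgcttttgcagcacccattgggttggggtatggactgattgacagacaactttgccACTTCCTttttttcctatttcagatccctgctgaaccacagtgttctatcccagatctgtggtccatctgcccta
Mpeg1, chr19:12460520-12460769, plus strand: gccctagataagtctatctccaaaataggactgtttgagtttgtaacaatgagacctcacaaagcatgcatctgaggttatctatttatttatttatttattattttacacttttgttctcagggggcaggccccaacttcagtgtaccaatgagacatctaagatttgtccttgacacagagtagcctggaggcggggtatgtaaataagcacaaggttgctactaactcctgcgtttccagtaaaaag
Aif1, chr17:35176053-35176302, minus strand: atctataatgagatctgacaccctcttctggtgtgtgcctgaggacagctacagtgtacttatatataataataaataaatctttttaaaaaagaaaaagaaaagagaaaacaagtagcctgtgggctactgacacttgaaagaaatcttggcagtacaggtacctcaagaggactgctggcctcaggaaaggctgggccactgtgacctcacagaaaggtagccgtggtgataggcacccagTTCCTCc
Mrc1, chr2:14229164-14229413, plus strand: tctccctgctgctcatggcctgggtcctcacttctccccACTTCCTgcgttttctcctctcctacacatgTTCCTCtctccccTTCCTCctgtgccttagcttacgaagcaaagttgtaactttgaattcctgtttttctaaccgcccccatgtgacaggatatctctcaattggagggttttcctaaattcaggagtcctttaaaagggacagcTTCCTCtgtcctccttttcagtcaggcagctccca

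A RefSeq promoter was matched for 26 of the 33 genes, the others being C1qa, Csf1r, Gpr34, Selplg, Spi1, Tmem119 and Tyrobp. The same 250 bases were searched on both strands in each. GAGGAA was found in the promoter of 14 of the 26 (53.8%), beside 25.9% of the 27025 genes with a promoter. AGGAAGT, which can share the letters AGGAA with GAGGAA where they overlap, was found in 7 of the 26 (26.9%), beside 8.80% of all genes. The Mrc1 promoter held 3 copies of GAGGAA and 1 of AGGAAGT, that of Fcrls held 1 of each, and that of Aif1 held 1 GAGGAA close to the start. Neither was found in the Mpeg1 window. These letter matches are a description and are not binding sites.

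The libraries held between 15376071 and 26923127 counted reads, and 34 of 34 rows entered the test in both comparisons. Counts of these genes were low. The median raw count per row ran from 27 in wild type 1 to 113.5 in SmoM2 1, libraries of unlike depth. Such counts limit the precision of each value. The wild-type libraries differed among themselves. Wild type 2 was the highest of the 3 on 26 of the 34 rows and more than 2 times the mean of the other two on 15, in either table. Beside this, wild type 2 and ShhN IUE 3 had the most RNA of meningeal and fibroblast genes such as Col1a1 and Dcn. The summed level of 10 such genes was 50.1, 903 and 294 CPM (counts scaled to library size by TMM) in wild type 1 to 3, and 47.2, 74.2 and 1021 in ShhN IUE 1 to 3. In SmoM2 1 to 3 it was 539, 279 and 395.

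Coro1a and Lgmn are also expressed by other cells of the cortex, and the summed level was therefore taken over the other 32 rows. It was 82.5, 171 and 99.8 CPM in wild type 1 to 3 and 165, 147 and 228 CPM in ShhN IUE 1 to 3. In SmoM2 1 to 3 it was 215, 174 and 172 CPM, beside 81.1, 170 and 97.9 CPM in the wild-type libraries as counted in that table. Wild type 2 lay above 2 of the ShhN IUE libraries and just below the lowest SmoM2 library, and the other wild-type libraries lay below all 6 of the intervention libraries. The place of wild type 2 depended on leaving out Coro1a and Lgmn. Over all 34 rows it held 266 CPM, beside 269, 241 and 343 CPM in ShhN IUE 1 to 3. In the table with SmoM2 it held 275 CPM, beside 326, 274 and 266 CPM in SmoM2 1 to 3. How much the meningeal RNA contributes to the differences below was not tested. The counts are also given without wild type 2, and for ShhN IUE without wild type 2 and ShhN IUE 3 together. For SmoM2, leaving out wild type 2 does not even out the meningeal RNA. As counted in the table with SmoM2, wild type 1 and 3 held 37.0 and 273 CPM of it, below all 3 SmoM2 libraries. Where wild-type levels are given once for both comparisons, they are those of the table with ShhN IUE.

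**Figure D1:**
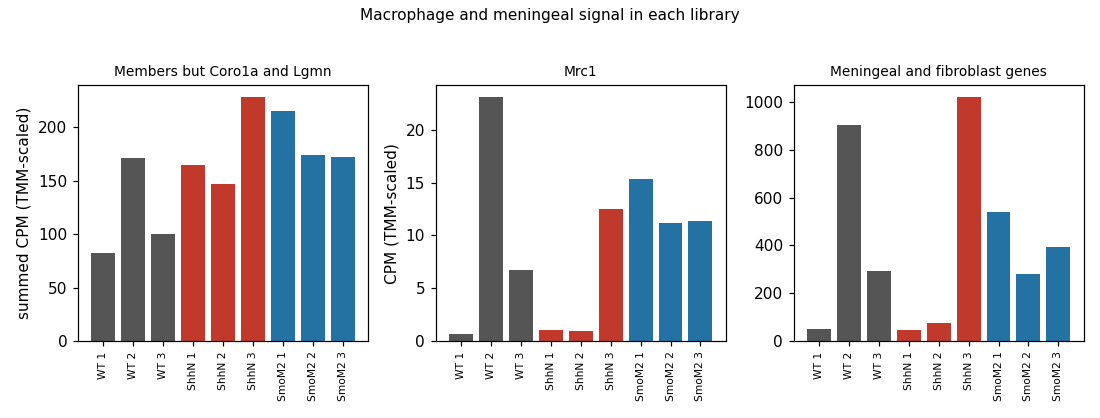
Bars give 1 library each: the summed level of 32 rows of microglia and macrophage genes (left), the level of Mrc1 (middle) and the summed level of 10 meningeal and fibroblast genes (right), in TMM-scaled CPM on axes from 0. WT is wild type, shown as counted in the table with ShhN IUE. Wild type 2 and ShhN IUE 3 had the most meningeal RNA, and wild type 2 had the highest Mrc1 at 23.1 CPM.

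Levels between genes were compared per length, as the deposited FPKM (fragments scaled to transcript length and library size). In the 3 wild-type libraries the highest mean FPKM was that of Lgmn, a lysosomal protease, at 12.2. It was followed by Coro1a, an actin-binding protein of leukocytes and neurons, at 9.42, and then by the subunits of C1q, which starts the classical complement pathway. C1qa stood at 6.06, C1qb at 3.83 and C1qc at 2.51 FPKM, with Csf1r, the receptor for Csf1 and Il34, between them at 2.70. Microglia-defining surface proteins were lower, with Cx3cr1 at 1.26, Fcrls at 1.02, Tmem119 at 0.865 and P2ry12 at 0.569 FPKM. Ptprc, the phosphatase CD45, was the lowest at 0.0383. All 33 genes had reads in every group, so markers of microglia were present throughout, at levels per length far below those of Lgmn for most.

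**Figure D2:**
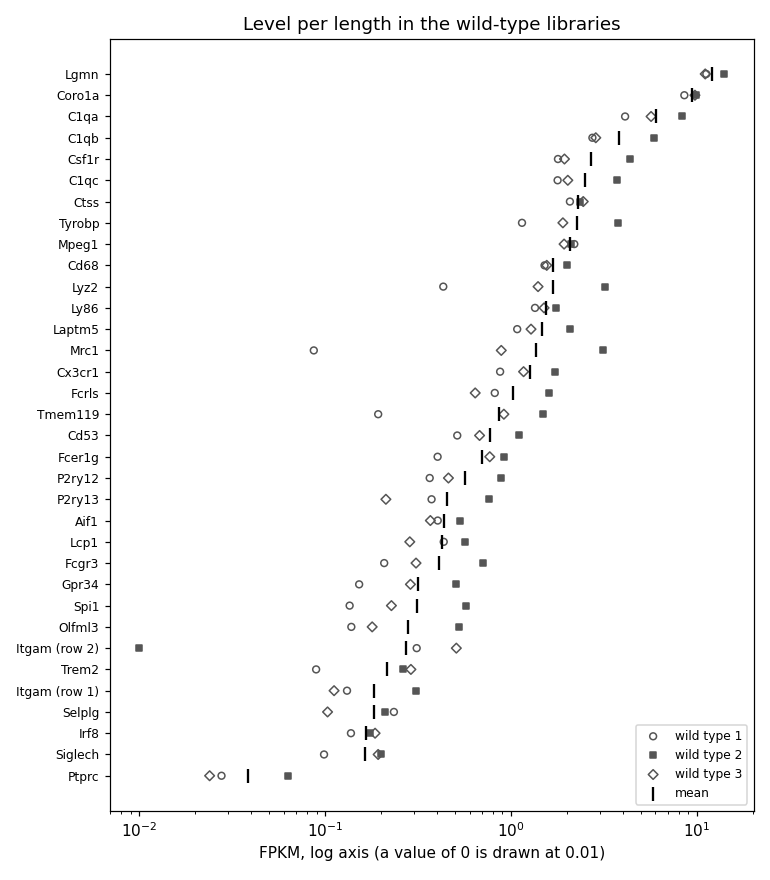
Level per length (deposited FPKM, log axis) of each row in the 3 wild-type libraries of the table with ShhN IUE, in the order of the mean (bar); a value of 0 is drawn at 0.01. Wild type 2 (filled squares) is at the right end of most rows, and 1 Itgam row is at 0 there.

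In the ShhN IUE cortex 6 of the 33 genes rose against wild type and none fell. Those that rose were Aif1, a calcium-binding protein of the macrophage cytoskeleton also called Iba1, Fcrls, an Fc receptor-like protein of microglia, the adaptor Tyrobp, the pore-forming protein Mpeg1, the lysosomal glycoprotein Cd68 and the transcription factor Irf8. The 6 rows were 17.6% of the 34 tested, while 16.1% of all 16180 genes tested rose, so the share was near the background. No row fell, beside 17.2% of all genes. By edgeR's quasi-likelihood test, 10 rows reached an unadjusted p under 0.05, all of them higher in ShhN IUE. The share of all genes at that level was not counted, but 5380 of the 16180 passed the adjusted threshold, up or down. The 10 rows are therefore no separate evidence of a rise. No row fell with DESeq2 or limma-voom either, beside 18.4% and 17% of all genes. The log2 fold change was above 0 on 29 of the 34 rows, beside 49.7% of all genes, and its median was 0.66 (quartiles 0.22 and 0.84), beside -0.0038 over all genes.

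Wild type 2 decided much of that count. Without it, 11 rows rose: Aif1, C1qb, C1qc, Csf1r, Cx3cr1, Fcgr3, Fcrls, Laptm5, Mpeg1, Spi1 and Tyrobp. They were 32.4% of the rows, beside 11.7% of all genes in that fit. Wild type 2 was the highest wild-type library on 26 of the 34 rows, so leaving it out lowers the wild-type mean on most of them. The larger share is therefore no separate evidence of a rise. Without both wild type 2 and ShhN IUE 3, the libraries highest in meningeal genes, 7 rose (20.6% of rows, beside 9.56% of all genes): Aif1, Csf1r, Cx3cr1, Fcrls, P2ry13, Spi1 and Tyrobp. Leaving out ShhN IUE 1 left 2, which is 5.88% beside 9.49% of all genes. Leaving out ShhN IUE 3, wild type 1 or wild type 3 left 3 (8.82%), beside 12.7%, 13.2% and 11.7% of all genes. With all libraries, DESeq2 gave 8 rises (23.5%, beside 17.5% of all genes), adding Ctss and Cx3cr1, and limma-voom gave 7 (20.6%, beside 16.2%), adding Trem2. Aif1 and Fcrls rose in all of these fits.

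In the SmoM2 cortex 3 of the 33 genes rose and none fell. These were Fcrls, Mpeg1 and Cx3cr1, the fractalkine receptor. They were 8.82% of the 34 rows, beside 9.59% of all 16485 genes tested, again near the background, and 9.29% of all genes fell. An unadjusted p under 0.05 was reached on 13 rows, all of them higher in SmoM2. The share of all genes at that level was not counted, but 3112 of the 16485 passed the adjusted threshold, up or down. DESeq2 and limma-voom likewise gave no fall, beside 11.1% and 9.2% of all genes. The log2 fold change was above 0 on 30 rows, beside 49.2% of all genes, and its median was 0.60 (quartiles 0.38 and 0.95), beside -0.0072 over all genes. Both comparisons used the same 3 wild-type libraries, so they are not independent of each other.

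Here too the count turned on wild type 2. Without that library 16 rows rose in the SmoM2 cortex: C1qb, Csf1r, Cx3cr1, Fcgr3, Fcrls, Gpr34, Laptm5, Lcp1, Lyz2, Mpeg1, Olfml3, P2ry12, P2ry13, Ptprc, Spi1 and Tyrobp. They were 47.1% of the rows, beside 9.51% of all genes in that fit. Wild type 2 was the highest wild-type library on 26 of the 34 rows, so leaving it out lowers the wild-type mean on most of them. The remaining wild-type libraries also held less meningeal RNA than any SmoM2 library. The larger share is therefore no separate evidence of a rise. Leaving out SmoM2 1 left Mpeg1 alone (2.94%, beside 5.71% of all genes). Leaving out any other single library left 2, Fcrls and Mpeg1 (5.88%), beside 4.38% to 9.02% of all genes. With DESeq2 or limma-voom 7 rose (20.6%, beside 10.9% and 10.1% of all genes), the others being C1qb, Gpr34, Spi1 and Tyrobp. The 3 SmoM2 libraries were closer to each other than the wild-type ones: the coefficient of variation in CPM was lower in the SmoM2 group on 28 of 34 rows, with a median of 0.178 beside 0.450.

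**Figure D3:**
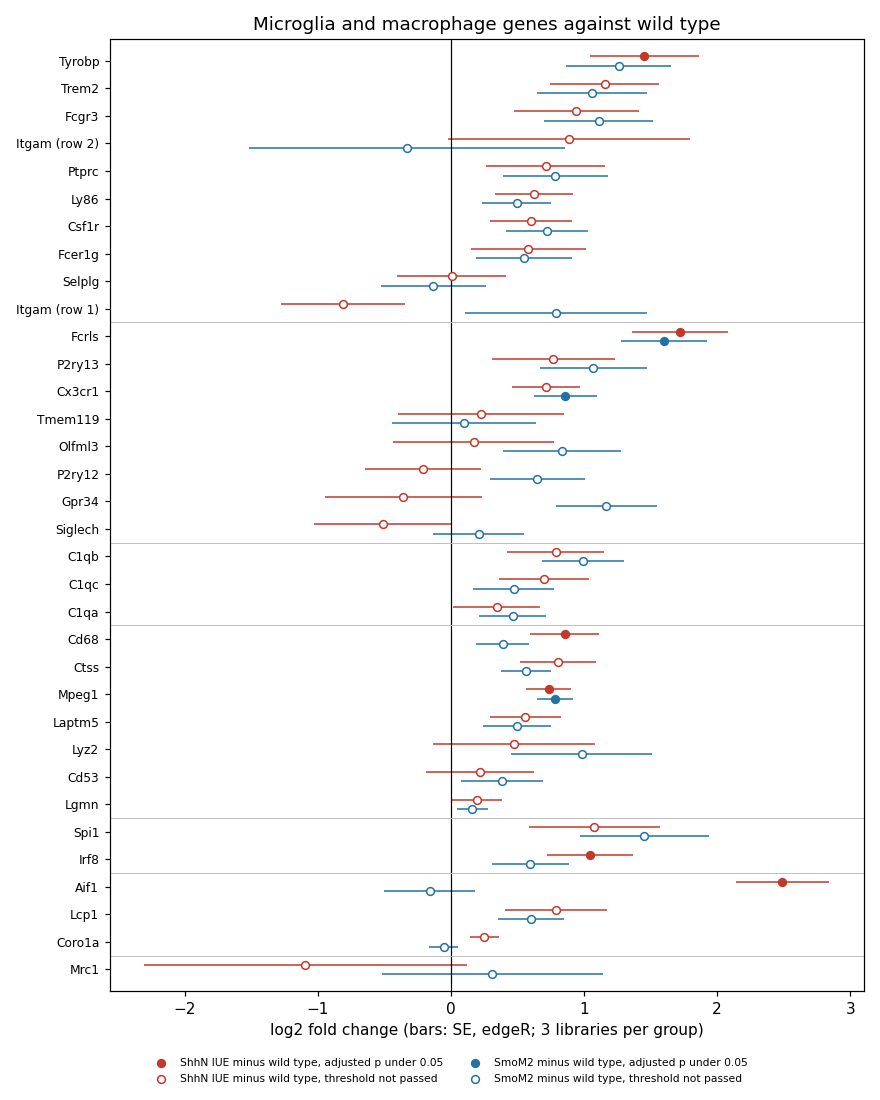
Log2 fold change against wild type of every row of the 33 genes in ShhN IUE (red) and SmoM2 (blue), with the SE from edgeR as bars, from 3 libraries per group; grey lines separate groups of genes by role. Filled circles passed an adjusted p of 0.05, which 6 did in ShhN IUE and 3 in SmoM2, all to the right of 0.

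Aif1 showed the largest difference among the 33 genes in the ShhN IUE group. The gene lies on chromosome 17 at 35170991 to 35176068. Its level was 7.73, 4.93 and 11.3 CPM in ShhN IUE 1 to 3, and 1.35, 1.68 and 1.21 CPM in wild type 1 to 3. Every ShhN IUE library lay above every wild-type library, and the meninges-rich wild type 2 did not stand apart. Aif1 rose by 2.49 ± 0.352 (log2, SE, n = 3 per group; 5.62-fold, edgeR adjusted p = 0.00208), and it kept its call in all 15 alternative fits. In the SmoM2 libraries the level was 1.39, 0.763 and 1.34 CPM, beside 1.19, 1.73 and 0.985 CPM in wild type. Those groups overlapped, with a difference of -0.16 ± 0.342 (adjusted p = 0.783).

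The other cytoskeletal genes did not pass in either group. Lcp1, the actin-bundling protein L-plastin, differed by 0.79 in ShhN IUE and by 0.60 in SmoM2 (log2). Coro1a differed by 0.25 and by -0.05. Aif1 was the only one of the 3 to rise.

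Fcrls was higher in both interventions by a similar amount. The gene lies on chromosome 3 at 87250758 to 87263738. Its level was 6.96, 8.90 and 11.5 CPM in ShhN IUE and 10.3, 7.24 and 7.71 CPM in SmoM2, beside 2.28, 4.23 and 1.76 CPM in wild type. All 6 intervention libraries lay above wild type 2, the highest wild-type library. The rise was 1.72 ± 0.361 in ShhN IUE (adjusted p = 0.00948) and 1.60 ± 0.326 in SmoM2 (adjusted p = 0.0125). The SmoM2 call was lost without SmoM2 1 (adjusted p = 0.0518).

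Cx3cr1 was measured at 14.3, 11.9 and 17 CPM in ShhN IUE, 17.9, 16.2 and 13.7 CPM in SmoM2 and 6.28, 11.8 and 8.24 CPM in wild type. Neither intervention group overlapped wild type, although ShhN IUE 2 was almost level with wild type 2. Cx3cr1 rose in SmoM2 by 0.86 ± 0.234 (adjusted p = 0.0366), and its difference in ShhN IUE was 0.71 ± 0.258 (adjusted p = 0.0652). The SmoM2 call was lost when any single library other than wild type 2 was left out, with adjusted p-values up to 0.122. In ShhN IUE the gene passed without wild type 2 (adjusted p = 0.026).

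The ligand of Cx3cr1, the neuronal membrane chemokine Cx3cl1, fell in both interventions. It stood at 35.3, 28.9 and 14.8 CPM in ShhN IUE and at 37.2, 38.5 and 32.3 CPM in SmoM2. In wild type it was 78.7, 79.6 and 64.5 CPM in the table with ShhN IUE and 77.8, 75.4 and 62.0 CPM in that with SmoM2. No library of either intervention reached the wild-type range. The log2 fold change was -1.49 ± 0.283 in ShhN IUE (adjusted p = 0.00637) and -0.996 ± 0.122 in SmoM2 (adjusted p = 0.0016).

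The log2 differences of the remaining microglia-enriched genes lay on both sides of 0 in ShhN IUE and above 0 in SmoM2. P2ry12, the ADP receptor that guides microglial processes, stood at 3.91, 6.82 and 2.44 CPM in ShhN IUE and 3.37, 7.68 and 4.17 CPM in wild type. In SmoM2 it was 4.99, 5.42 and 4.56 CPM, beside 2.84, 5 and 1.64 CPM for wild type in that table. The groups overlapped in both, and the differences were -0.21 ± 0.438 (adjusted p = 0.739) and 0.65 ± 0.357 (adjusted p = 0.24). The wild-type counts of P2ry12 differ between the tables, 310 reads in all against 195, for the same 3 libraries. P2ry12 shares exon positions with Med12l on the opposite strand, and no source used here says whether the counting used strand. Without wild type 2 the ShhN IUE difference changed sign to 0.22, and the gene passed in SmoM2 (adjusted p = 0.034).

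Tmem119, a membrane protein used as a microglial marker, was measured at 2.24, 1.72 and 3.94 CPM in ShhN IUE, 2.61, 2.50 and 2.11 CPM in SmoM2 and 0.519, 3.77 and 2.42 CPM in wild type. Wild type spanned nearly the whole range of the 9 libraries, so its low value in wild type 1 set the sign: without that library the differences were -0.24 and -0.37, against 0.23 and 0.10 with it. Siglech, a sialic acid-binding lectin, and Gpr34, a lysophosphatidylserine receptor, differed by -0.51 and -0.36 in ShhN IUE and by 0.21 and 1.17 in SmoM2. The purine receptor P2ry13 differed by 0.77 and 1.07, and the secreted protein Olfml3 by 0.17 and 0.83. None of these 5 genes passed in either comparison.

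Among the receptors and adaptors, Csf1r stood at 22.6, 22.6 and 27.4 CPM in ShhN IUE, 31.0, 25.8 and 22.2 CPM in SmoM2 and 10.9, 25.2 and 11.6 CPM in wild type. Wild type 2 lay within the range of both intervention groups, and the other wild-type libraries were far below it. The differences were 0.60 ± 0.309 (adjusted p = 0.167) and 0.72 ± 0.309 (adjusted p = 0.141). Without wild type 2 they were 1.10 (adjusted p = 0.00728) and 1.22 (adjusted p = 0.00602). Of the ligands of Csf1r, Csf1 differed by 0.21 in ShhN IUE and 0.18 in SmoM2, and Il34 by -0.53 and -0.18, with none of these past the threshold.

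Tyrobp, also called DAP12, carries the signal of Trem2 and other receptors without a signalling tail of their own. It was 3.76, 3.03 and 3.88 CPM in ShhN IUE, 3.82, 2.50 and 3.03 CPM in SmoM2 and 0.674, 2.09 and 1.10 CPM in wild type. Neither intervention overlapped wild type. Tyrobp rose in ShhN IUE by 1.45 ± 0.41 (adjusted p = 0.0282), and its difference in SmoM2 was 1.26 ± 0.395 (adjusted p = 0.0589). The ShhN IUE call was lost without ShhN IUE 1 or 3 or wild type 1 or 3, with adjusted p-values up to 0.089. Without wild type 2 the gene passed in SmoM2 (adjusted p = 0.0142).

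Trem2, the lipid receptor that pairs with Tyrobp, stood at 3.10, 3.03 and 2.75 CPM in ShhN IUE, 3.71, 2.25 and 2.34 CPM in SmoM2 and 0.570, 1.59 and 1.81 CPM in wild type. Its groups did not overlap in either comparison, with differences of 1.16 ± 0.409 (adjusted p = 0.0606) and 1.06 ± 0.413 (adjusted p = 0.11). The Fc receptor Fcgr3 differed by 0.94 and 1.11, its signalling chain Fcer1g by 0.58 and 0.55, and Ptprc by 0.71 and 0.78. Ly86, which pairs with a Toll-like receptor relative, differed by 0.62 and 0.50, and Selplg, the selectin ligand PSGL-1, by 0.01 and -0.13. None of these 6 passed in either comparison by edgeR with all libraries included, while Trem2 passed in ShhN IUE with limma-voom (adjusted p = 0.0408).

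Itgam, the integrin subunit CD11b, is counted on 2 overlapping rows of chromosome 7, from 128062640 to 128118491 and from 128062683 to 128128160. GENCODE M21 names the second Gm49368 and places both on the same strand, so reads can be split between them. The counts of wild type 1 to 3 were 19, 48 and 15 on the first row and 33, 0 and 50 on the second. Neither row alone therefore gives the level of the gene. Summed, they gave 52, 48 and 65 reads in wild type and 64, 58 and 60 in ShhN IUE, a difference of 0.31 ± 0.269 (adjusted p = 0.406). In the other table the sums were 52, 48 and 66 in wild type and 92, 91 and 85 in SmoM2, a difference of 0.31 ± 0.242 (adjusted p = 0.408).

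The 3 C1q genes differed in the same direction in both comparisons without passing the test. C1qa was measured at 9.05, 5.16 and 10.1 CPM in ShhN IUE, 9.87, 8.98 and 7.52 CPM in SmoM2 and 4.46, 8.59 and 6.04 CPM in wild type. Both intervention groups overlapped wild type, with differences of 0.35 ± 0.327 (adjusted p = 0.444) and 0.47 ± 0.252 (adjusted p = 0.232). C1qb differed by 0.79 in ShhN IUE and 0.99 in SmoM2, and C1qc by 0.70 and 0.47. C1qb in SmoM2 came closest to the threshold (adjusted p = 0.056).

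Of the lysosomal and phagosomal genes, Mpeg1 passed in both comparisons. The gene lies on chromosome 19 at 12460779 to 12465284. Its level was 15.6, 13.2 and 16.8 CPM in ShhN IUE, 16, 14.8 and 16.3 CPM in SmoM2 and 9.91, 8.95 and 8.57 CPM in wild type. All 6 intervention libraries were above all wild-type libraries, and wild type 2 was in the middle of its group. Mpeg1 rose by 0.74 ± 0.168 in ShhN IUE (adjusted p = 0.0129) and by 0.78 ± 0.136 in SmoM2 (adjusted p = 0.00643). The SmoM2 call held in all 14 alternatives. The ShhN IUE call was lost without ShhN IUE 1 (adjusted p = 0.0521) and without both libraries rich in meningeal genes (adjusted p = 0.0731).

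Cd68, a marker of phagocytic macrophages, stood at 6.10, 4.93 and 8.26 CPM in ShhN IUE, 5.14, 4.66 and 4.26 CPM in SmoM2 and 3.27, 4.09 and 3.30 CPM in wild type. No intervention library was as low as wild type. Cd68 rose in ShhN IUE by 0.85 ± 0.262 (adjusted p = 0.0378), and its difference in SmoM2 was 0.39 ± 0.201 (adjusted p = 0.213). The ShhN IUE call was lost when any library except ShhN IUE 2 was left out, with adjusted p-values up to 0.105. The protease Ctss differed by 0.81 in ShhN IUE (adjusted p = 0.0598) and 0.56 in SmoM2, without overlap with wild type in either. The lysosomal membrane protein Laptm5 differed by 0.56 and 0.50, the lysozyme gene Lyz2 by 0.47 and 0.98, the tetraspanin Cd53 by 0.22 and 0.38, and Lgmn by 0.20 and 0.16.

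Of the transcription factors, Spi1 was measured at 1.93, 1.90 and 2.82 CPM in ShhN IUE, 3.74, 2.03 and 2.57 CPM in SmoM2 and 0.467, 1.86 and 0.769 CPM in wild type. Neither intervention overlapped wild type, but wild type 2 was nearly level with 2 ShhN IUE libraries. The differences were 1.08 ± 0.494 (adjusted p = 0.127) and 1.45 ± 0.487 (adjusted p = 0.0717), and both passed without wild type 2 (adjusted p = 0.0248 and 0.0147). Irf8, which works with PU.1, stood at 2.64, 2.26 and 4.20 CPM in ShhN IUE and 1.24, 1.5 and 1.65 CPM in wild type. It rose in ShhN IUE by 1.04 ± 0.325 (adjusted p = 0.0394). That call was lost when any library except ShhN IUE 2 was left out, with adjusted p-values up to 0.117, and without wild type 2 and ShhN IUE 3 together (adjusted p = 0.167). In SmoM2 it was 2.86, 1.57 and 2.19 CPM, a difference of 0.60 ± 0.291 (adjusted p = 0.19).

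Mrc1 varied more within wild type and within ShhN IUE than between the groups. Its level was 0.674, 23.1 and 6.76 CPM in wild type 1 to 3, 1.07, 0.950 and 12.5 CPM in ShhN IUE 1 to 3, and 15.4, 11.2 and 11.3 CPM in SmoM2 1 to 3. Within each of the 3 groups, its highest library was the one with the most meningeal RNA. The differences were -1.09 ± 1.21 (adjusted p = 0.517) and 0.31 ± 0.829 (adjusted p = 0.827). The first changed sign without wild type 2 (0.37) and the second without wild type 1 (-0.24). Across groups, 12 of the 34 rows in ShhN IUE and 13 in SmoM2 lay wholly above wild type, and none lay wholly below, beside 24.5% and 24.9% of all genes in ShhN IUE and 20.4% and 19.7% in SmoM2.

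**Figure D4:**
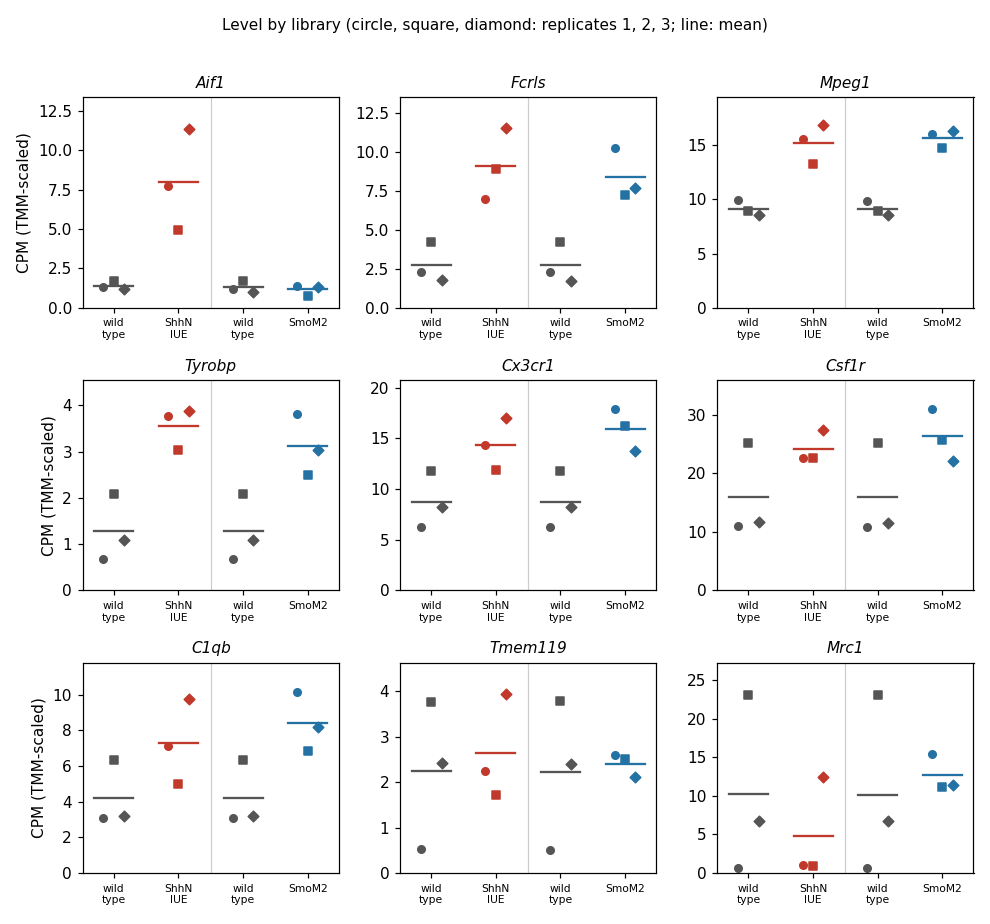
Level in TMM-scaled CPM (axes from 0) of 9 of the genes in each library, with the mean as a line; the left part of each panel is the table with ShhN IUE and the right part that with SmoM2, and circle, square and diamond are replicates 1, 2 and 3. Aif1 was above wild type in ShhN IUE only, Fcrls and Mpeg1 were above it in both, and Mrc1 ran from 0.674 to 23.1 CPM within wild type.

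The interventions were then compared with each other in a fit of all 9 libraries, over the genes whose wild-type counts were alike in the tables. Of the 33 genes, 30 were tested, on 31 rows. P2ry12, Laptm5 and Coro1a were not, since the tables count them differently. Aif1 was lower in SmoM2 than in ShhN IUE by 2.77 on the log2 scale (-2.77 ± 0.355, edgeR adjusted p = 0.00115), and it was the only row past the threshold, beside 8.07% of all 12349 genes that were lower and 8.45% that were higher. The call held in all 15 alternatives in which the gene was tested, with log2 differences from -3.02 to -2.45. With a narrower tolerance on the wild-type counts Aif1 is not tested, its wild-type sums being 85 and 79 reads.

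For the other 30 rows no difference between the interventions was detected at this depth. Libraries of the 2 groups were fully apart on 2 rows, Gpr34 with SmoM2 above and Aif1 with SmoM2 below, beside 20.4% and 20.6% of all genes. Fcrls differed by -0.13 ± 0.302, Mpeg1 by 0.03 ± 0.135 and Csf1r by 0.11 ± 0.276 (SmoM2 minus ShhN IUE, log2). The widest of the differences that missed the threshold without overlap was that of Gpr34, at 1.51 ± 0.495 (adjusted p = 0.0597), which passed with DESeq2 and limma-voom. At an unadjusted p under 0.05, whose share over all genes was not counted, Gpr34 and the first row of Itgam were higher in SmoM2. That row alone does not give the level of Itgam. With its rows summed, Itgam differed by -0.00493 ± 0.226 (edgeR adjusted p = 0.992). Without ShhN IUE 3, Mrc1 passed, at 3.62 (adjusted p = 0.0467). The median over the 31 rows was 0.03, beside -0.0057 over all genes.

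Beside Aif1, the few genes of monocytes and neutrophils that were tested were measured in the same libraries. Over the whole list of 14 such genes the summed count was 237, 35 and 186 reads in ShhN IUE 1 to 3 and 61, 44 and 79 in wild type 1 to 3. ShhN IUE 2 had the fewest of these reads and the lowest Aif1 of its group, 4.93 CPM. However, ShhN IUE 2 was the lowest of its group on 21 of the 34 rows of microglia and macrophage genes. The part of monocytes and neutrophils in the Aif1 level was not tested. None of the 4 such genes tested in ShhN IUE passed against wild type. S100a9, an alarmin of neutrophils, stood at 4.07, 0.534 and 4.57 CPM in ShhN IUE and 0.830, 0.364 and 1.21 CPM in wild type. It overlapped wild type, with a log2 difference of 1.94 ± 0.740 (edgeR adjusted p = 0.0758). It was lower in SmoM2 than in ShhN IUE by a log2 difference of -2.59 ± 0.682 (adjusted p = 0.028). Of 15 genes of lymphocytes and mast cells none had enough reads to be tested, with 5 to 43 reads in all per library of that table.

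A wider list of 53 other genes used by microglia and macrophages gave a like picture. Of the 48 tested in ShhN IUE 6 rose and 2 fell, with a median of 0.56, and of the 51 tested in SmoM2 8 rose and 2 fell, with a median of 0.57. The counts of this and the following lists stand beside 16.1% of all genes that rose and 17.2% that fell in ShhN IUE, and 9.59% and 9.29% in SmoM2. Adgre1, the macrophage marker F4/80, rose by 1.25 ± 0.331 in ShhN IUE (adjusted p = 0.0222) and by 1.20 ± 0.233 in SmoM2 (adjusted p = 0.0102). Csf3r, a receptor for granulocyte colony-stimulating factor, rose by 1.69 and 1.37. Adgre1 and Csf3r are named here after their values were seen. Sall1 rose by 1.96 in ShhN IUE and 1.95 in SmoM2, and Ikzf1 fell by 3.77 and 2.56. Sall1 is also used by neural progenitors, and Ikzf1 by neurons.

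The supporting signals changed in part. Of 14 ligands and survival factors tested in ShhN IUE, 1 rose and 4 fell, and the median was -0.33. Tgfb3 rose by 1.19, while Cd200, a neuronal ligand that restrains microglia, fell by 0.32 and Gas6, a ligand of Axl and Mertk, fell by 0.59. Cx3cl1 and the receptor chain Tgfbr1 were the others that fell. In SmoM2 Cd47, a signal against phagocytosis, rose by 0.39, Cx3cl1 fell, and the other 12 did not pass.

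Genes of activated and axon-tract microglia showed 4 rises and 2 falls among 13 tested in ShhN IUE and 8 rises with no fall among 15 in SmoM2. Spp1, osteopontin, rose in SmoM2, where it stood at 14.9, 4.91 and 10.5 CPM, beside 0.516, 3.73 and 1.97 CPM in wild type. The rise was 2.27 ± 0.609 (adjusted p = 0.0347). In ShhN IUE it was 2.34, 1.90 and 12.4 CPM, high only in the library richest in meningeal genes, with a difference of 1.40 ± 0.841 (adjusted p = 0.231). Within SmoM2 and within wild type, Spp1 also had the order of the summed meningeal genes. Those stood at 539, 279 and 395 CPM in SmoM2 and at 37.0, 754 and 273 CPM in wild type as counted there. The part of meningeal RNA in the Spp1 rise was not tested. Itgax, the integrin subunit CD11c, rose in SmoM2 by 1.74 ± 0.474 (adjusted p = 0.0365), from at most 0.364 CPM in wild type to between 0.678 and 1.47 CPM. It was higher in SmoM2 than in ShhN IUE by 2.02 ± 0.558 (adjusted p = 0.0331). Spp1 and Itgax are singled out here after their values were seen.

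Other members of that list are broadly expressed. Cd9, a tetraspanin, rose by 1.26 and 1.38, and Fabp5, a lipid-binding protein, by 0.63 and 0.54, from wild-type means of 23.1 and 163 CPM. Igf1, a growth factor made by microglia and by neurons, fell in ShhN IUE by 1.62 and did not pass in SmoM2. Lpl fell in ShhN IUE by 0.56 (edgeR adjusted p = 0.00621) and did not pass in SmoM2 against wild type. It was higher in SmoM2 than in ShhN IUE by 0.69 (edgeR adjusted p = 0.00298). Markers of border macrophages gave no rise in either comparison and 1 fall, that of Maf, which interneurons also use. Over the 9 tested in ShhN IUE the median was -0.67, and over the 11 tested in SmoM2 it was 0.52. Lyve1, Pf4 and Cd163, defining markers of these cells, were each highest among the wild-type libraries in wild type 2, at 11.6, 3.41 and 5.23 CPM.

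Beyond C1q, complement genes moved in both directions, with 1 rise and 2 falls among 17 in ShhN IUE and 2 rises and 3 falls among 18 in SmoM2. The regulator Csmd3 fell in both, Cd55 in ShhN IUE, and Csmd1 and Cd59a in SmoM2. Cfp, properdin, rose in both, by 1.14 and 0.60, and C4b rose in SmoM2 by 1.04. Of 11 inflammatory genes tested in each comparison, Vcam1 rose and Relb fell in both, and the rest did not pass. Over the same libraries 9 of 10 cell cycle genes rose in ShhN IUE and 10 of 10 in SmoM2. Whether macrophages contributed to that cannot be told apart in these bulk samples.

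In the authors' deposited table for ShhN IUE, 3 of the 34 rows are marked as up, Aif1, Fcrls and Tyrobp. In the authors' deposited table for SmoM2, 6 are marked as up, Fcrls, Tyrobp, Spi1, C1qb, Gpr34 and Fcgr3, and none is marked as down in either. The share of all genes that the authors mark was not counted, so these counts have no background beside them. Mpeg1 has q-values of 0.0321 and 0.00335 in the authors' deposited tables and is not marked as up in either. Cx3cr1 has a q-value of 0.0128 in that for SmoM2 and is likewise not marked as up there.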

How the data were processed

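RNA was sequenced from 9 libraries of newborn cortex, 3 in each of 3 groups taken from the labels. Per the file headers, the deposited tables hold raw counts per gene for each library, with no pooling. They also hold the authors' FPKM values, and the q-value and up or down mark of the authors' own comparison. Per the submitters' processing notes, HISAT2, StringTie and edgeR were used with GRCm38.p4 (mm10); their settings and strand use are not given in the sources used here.

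Counts were tested within each table by edgeR's quasi-likelihood F test (edgeR 4.0.16, R 4.3.3) after TMM scaling and filterByExpr by group, with Benjamini-Hochberg adjustment over all genes tested and a threshold of 0.05. SmoM2 was compared with ShhN IUE in a fit of all 9 libraries, taking the mean wild-type count of both tables, over genes whose wild-type sums (5 added) agreed within 0.1 on the log2 scale. That difference is SmoM2 minus ShhN IUE. Levels of a gene across libraries are TMM-scaled CPM, and levels between genes are FPKM. The scripts were tested on simulated data.

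Alternatives were RLE and upper quartile scaling, no filter, a filter of 1 CPM in 3 libraries, DESeq2 1.42.0, limma-voom (limma 3.58.1), each library left out in turn, a block for the replicate number, and tolerances of 0.05 and 0.2. Summing the rows of Itgam and leaving out the libraries highest in meningeal genes were chosen after seeing the data.

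The 33 genes, the gene lists and the motifs were chosen with earlier results of these data known. All 33 are accounted for. Values by library are given for those past the threshold and for Csf1r, Aif1, Cx3cr1, P2ry12, Tmem119, C1qa, Trem2, Spi1 and Mrc1. From each other list at most 4 genes per comparison were named, those with the smallest adjusted p among genes past the threshold with a mean of at least 1 CPM; exceptions are marked. Positions are those of the tables, and all 34 rows lay within 5 kb of the same gene in GENCODE M21.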

Additional observations from a re-analysis of the deposited data

Results flagged for a closer look

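Of the 30 genes tested between the interventions, Aif1 was the one whose effect differed by edgeR's test of the difference itself. Gpr34 also passed with DESeq2 and limma-voom. SmoM2 minus ShhN IUE was -2.77 on the log2 scale (SE 0.355, edgeR adjusted p = 0.00115), with all 3 SmoM2 libraries below all 3 ShhN IUE libraries. In reads, the ShhN IUE libraries held 152, 83 and 181, the SmoM2 libraries 38, 18 and 35, and the wild-type libraries 26, 37 and 22. Tyrobp, Fcrls and Mpeg1 were near each other in the interventions, with differences of -0.20, -0.13 and 0.03.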

How the results depend on the processing

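Aif1 and Fcrls in ShhN IUE, Mpeg1 in SmoM2 and Aif1 between the interventions kept their call in every alternative run in which they were tested. Leaving out single libraries moved the number of rows that rose from 6 to between 2 and 11 in ShhN IUE, from 3 to between 1 and 16 in SmoM2, and from 0 to between 0 and 1 in SmoM2 against ShhN IUE. In SmoM2, 7 rose with DESeq2 and 7 with limma-voom, beside 10.9% and 10.1% of all genes. Between the interventions 1 rose (Gpr34) with DESeq2 and 1 with limma-voom, beside 10.3% and 8.62% of all genes. At a tolerance of 0.05 the count that fell went from 1 to 0, since Aif1 was then not tested. Other scalings shifted the median of all genes by less than 0.1 (log2). Low counts limit every value, and the cause of the changes below was not tested.

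Signs reversed in these fits, given with the range of log2 differences over the fits without 1 library. In ShhN IUE, Mrc1 was 0.369 without wild type 2 (-3.32 to 0.369). P2ry12 was 0.0834 without ShhN IUE 3 and 0.22 without wild type 2 (-0.663 to 0.22), and 0.515 without both. Tmem119 was -0.17 without ShhN IUE 3 and -0.238 without wild type 1 (-0.238 to 0.842). In SmoM2, Mrc1 was -0.241 (-0.241 to 1.8) and Tmem119 -0.368 (-0.368 to 0.723) without wild type 1, and Aif1 was 0.0775 without SmoM2 2 and 0.103 without wild type 2 (-0.309 to 0.103). Between the interventions, Fcrls was 0.0691 (-0.295 to 0.0691) and Tmem119 0.258 (-0.359 to 0.258) without ShhN IUE 3, and Mpeg1 was -0.0549 (-0.0549 to 0.103) and C1qa -0.128 (-0.128 to 0.283) without ShhN IUE 2. Csf1r was -0.0216 without SmoM2 1 (-0.0216 to 0.225), and Trem2 was 0.0223 without SmoM2 2 and 0.00169 without SmoM2 3 (-0.38 to 0.0223).

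The labels give the groups the same replicate numbers, but nothing in them says that a number marks a shared litter or day. Deviations of same-numbered libraries correlated at 0.26, -0.32 and -0.11 between ShhN IUE and wild type and at -0.08, -0.14 and 0.05 between SmoM2 and wild type, so the numbers were not taken to pair the libraries. Not every library correlated best with its own number. With the replicate number as a block, 3 rows rose in ShhN IUE and 3 in SmoM2 (8.82% in each), beside 11.8% and 7.69% of all genes. Between the interventions 1 rose and 1 fell in that fit (3.23% each), beside 6.49% and 5.64% of all genes.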
